A study of Mus musculus with 4 samples.

Results

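The genes described here are 33 genes of cholesterol and fatty acid synthesis in the mouse. They comprise 6 enzymes of the mevalonate steps, 11 of the squalene and sterol steps, 5 genes that regulate both pathways, 4 enzymes that make palmitate or its precursors, and 7 desaturases and elongases. They are listed by name and by no threshold on measured values, though the list was drawn up with earlier results of these data known. All 33 were found on the array among the 36282 genes it names. All 33 passed the filter on low signal, alongside 17362 genes in all, and 31 were well above background on all 4 arrays.

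The RNA came from the submandibular gland, a salivary gland, of C57BL/6 mice of 8 to 10 weeks. Freshly isolated cells were separated by flow cytometry into submandibular gland stem cells (2 arrays) and non-stem cell epithelia (2 arrays). No gene was altered and no agent was given to either group, as far as the labels say. The labels do not state the surface markers of the sort, the number of mice or whether the replicates of a group came from separate sorts. A p-value here therefore measures the spread between 2 arrays a group, which may be technical. Each array gave a one-colour intensity per probe. "Non-stem" is used below for the non-stem cell epithelia. All levels are log2 signals relative to the 75th percentile of the same array, and all differences are stem cells minus non-stem cell epithelia on that scale, tested with limma and adjusted by Benjamini-Hochberg over the 17362 genes. A gene was called higher or lower where the adjusted p was under 0.05.

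Cholesterol is built from acetyl-CoA through mevalonate, isoprenoid units, squalene and lanosterol. Fatty acids are built from the same acetyl-CoA by carboxylation, chain extension to palmitate, and then elongation and desaturation. Both pathways are controlled by the sterol regulatory element binding proteins (SREBPs), transcription factors that are held in the endoplasmic reticulum by Scap and the Insig proteins while sterols are plentiful and are released by cleavage when sterols run low. In general SREBP-2, from Srebf2, acts mainly on cholesterol genes and SREBP-1c, from Srebf1, mainly on fatty acid genes. Dividing cells need both products for new membranes, and secretory cells need them for the membranes of granules.

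SREBPs bind sterol regulatory elements near the start of their targets, usually next to CCAAT boxes bound by NF-Y or GC boxes bound by Sp1, and E-boxes with the letters CACGTG can bind SREBP-1 as well as other factors. RefSeq promoter windows (250 bases before to 50 after the start, build GRCm38.p6) were matched for 27 of the 33 genes, with 36 windows in all. Fdps, Fdft1, Sqle, Scd1, Scd2 and Fads1 had no window. Shown here are 180 bases before the start of 7 genes whose differences are described below, to let the sequence be read beside the array values: 3 cholesterol enzymes that were higher in stem cells, 1 that was lower, the Insig pair that moved in opposite directions, and the elongase with the largest difference of the higher genes. Capitals mark CCAAT (or ATTGG, its reverse complement), TCACNCCAC (a form of the sterol regulatory element) and CACGTG, and no overlap between motifs occurred in these stretches.
Hmgcs1 (chr13:119690171-119690350, plus strand): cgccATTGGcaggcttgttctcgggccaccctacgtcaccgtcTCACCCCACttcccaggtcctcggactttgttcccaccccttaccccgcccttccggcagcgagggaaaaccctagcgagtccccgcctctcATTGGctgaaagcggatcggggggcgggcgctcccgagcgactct
Cyp51 (chr5:4104698-4104877, minus strand): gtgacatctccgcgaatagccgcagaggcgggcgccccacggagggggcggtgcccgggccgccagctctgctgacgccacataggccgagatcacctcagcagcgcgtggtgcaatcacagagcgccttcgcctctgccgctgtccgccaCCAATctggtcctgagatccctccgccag
Nsdhl (chrX:72918341-72918520, plus strand): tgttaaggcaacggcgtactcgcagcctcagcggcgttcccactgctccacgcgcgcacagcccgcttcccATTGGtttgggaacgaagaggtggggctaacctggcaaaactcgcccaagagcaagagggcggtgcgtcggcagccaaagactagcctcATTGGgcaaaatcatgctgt
Lss (chr10:76531425-76531604, plus strand): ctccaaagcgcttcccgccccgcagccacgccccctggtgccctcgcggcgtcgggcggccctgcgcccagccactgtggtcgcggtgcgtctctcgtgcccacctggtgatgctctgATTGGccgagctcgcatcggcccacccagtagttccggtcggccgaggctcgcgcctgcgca
Insig1 (chr5:28071232-28071411, plus strand): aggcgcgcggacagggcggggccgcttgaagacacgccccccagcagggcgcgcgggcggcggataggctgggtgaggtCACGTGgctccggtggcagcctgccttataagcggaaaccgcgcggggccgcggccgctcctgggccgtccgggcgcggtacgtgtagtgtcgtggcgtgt
Insig2 (chr1:121332590-121332769, minus strand): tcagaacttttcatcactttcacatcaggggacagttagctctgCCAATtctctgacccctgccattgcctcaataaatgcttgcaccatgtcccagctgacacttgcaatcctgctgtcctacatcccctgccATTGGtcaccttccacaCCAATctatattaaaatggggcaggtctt
Elovl6 (chr3:129532206-129532385, plus strand): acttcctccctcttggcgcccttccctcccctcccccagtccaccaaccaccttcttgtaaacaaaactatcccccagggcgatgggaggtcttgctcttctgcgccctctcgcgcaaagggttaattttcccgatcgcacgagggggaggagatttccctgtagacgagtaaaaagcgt

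The sequences differ in which motifs they hold. Hmgcs1 has CCAAT boxes on the opposite strand on both sides of the TCACCCCAC element at positions -137 to -129 from the start, and it was the only one of the 27 genes (3.70%) with that form on either strand, against 1.39% of the 9615 tested genes that had a window and 1.24% of all 32851 windows. Lss, which was lower in stem cells, has 1 CCAAT box at -62 to -58, and Cyp51, which was higher, has 1 at -29 to -25. Insig1 has a CACGTG at -101 to -96 and, before the stretch shown, an ATTGG at -216 to -212. The Insig2 window shown, 1 of 3 for that gene, was picked because it had the most matches. It has 3 CCAAT boxes and no CACGTG, while the other windows of Insig2 hold none of the 3 motifs. The stretch of Elovl6 holds none of the 3 motifs.

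Over the full windows and both strands, CCAAT was present in 23 of the 27 genes (85.2%), against 42.6% of the tested genes with a window and 37.4% of all windows. It was missing from Scap, Acaca, Elovl6 and Fads2. CACGTG was present in 6 of the 27 (22.2%), namely Dhcr7, Elovl5, Hsd17b7, Insig1, Sc5d and Scap, against 12.0% of tested genes and 7.15% of windows. The GC box letters GGGCGG were in 22 of the 27 (81.5%), against 67.4% of tested genes and 35.7% of windows. Some genes have several windows, which gives them more chances of a match. These are matches of letters and not measured binding.

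In the arrays, 7 of the 33 genes were called higher in stem cells and 6 lower, with 20 not called. The genes called higher were Elovl6, Fads1, Cyp51, Hmgcs1, Insig2, Sqle and Nsdhl. The genes called lower were Scd1, Insig1, Srebf1, Acly, Lss and Elovl1. The called share was 39.4%, beside 30.9% of all genes tested. In the higher direction the share was 21.2% beside 14.1% of all genes, and in the lower direction 18.2% beside 16.8%. The counts by step given below are to be read beside the same shares of all genes. The median difference was -0.02 over the 33 genes and -0.01 over all genes tested. The arrays of the groups did not overlap for 24 of the 33 genes (72.7%), beside 71.0% of all genes tested. Without non-stem array 1 the counts of higher and lower members were 1 and 2, and without non-stem array 2 they were 0 and 1, as described further below.

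The sizes were moderate. Elovl6 and Fads1 were the members at least 2-fold higher in stem cells, and Scd1 and Insig1 the members at least 2-fold lower, while the other 9 called genes differed by less than 2-fold. For 13 members the difference was under 0.3 in size. The called gene with the smallest difference was Nsdhl (0.55) and the uncalled gene with the largest was Idi1 (0.54), whose replicates were farther apart. The middle 50% of all genes tested lay between -0.45 and 0.39, and the middle 90% between -1.54 and 1.25, so that Scd1 and Elovl6 lay outside the latter range.

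**Figure D1:**
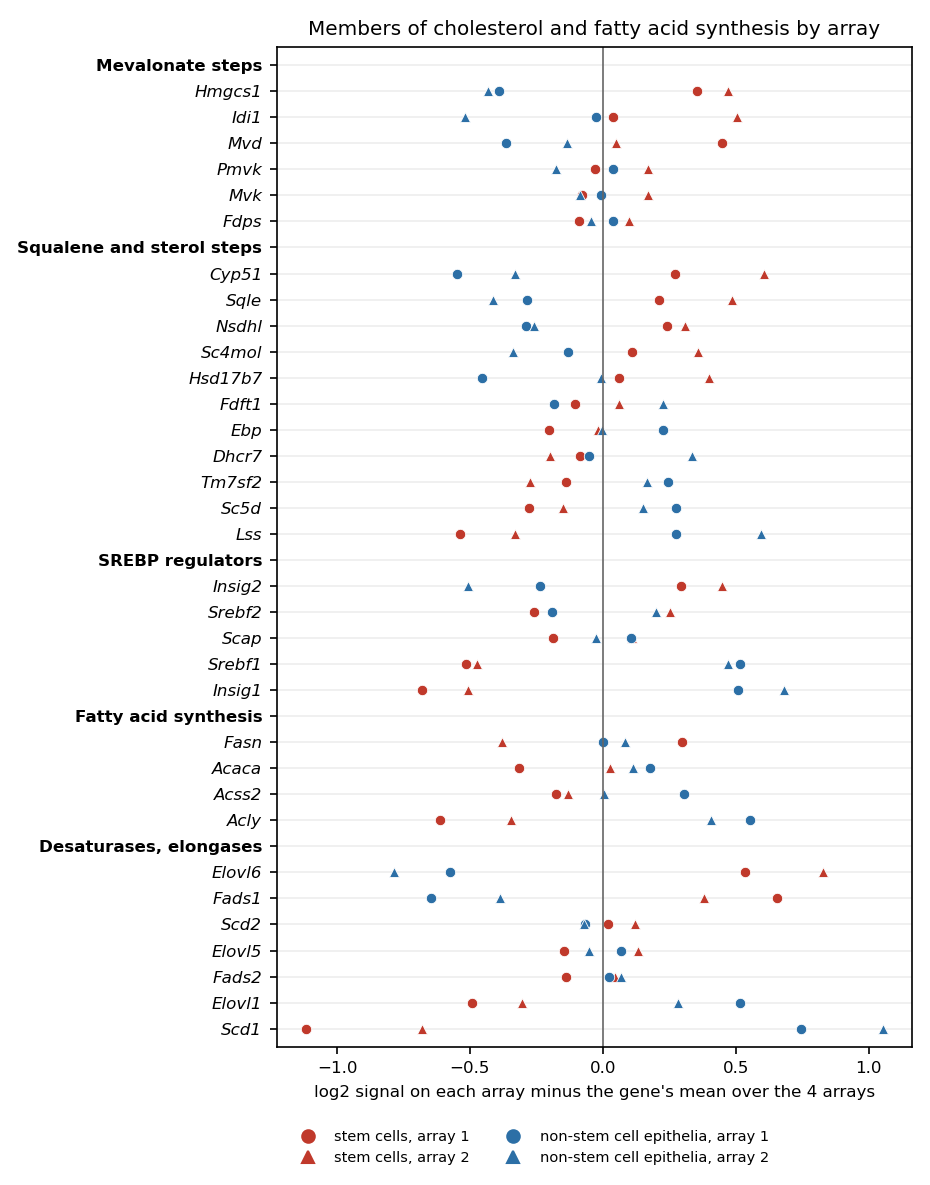
Signal of each of the 33 genes on each array, as the log2 level minus the gene's mean over the 4 arrays (horizontal axis, log2 units), with genes ordered by step. Circles and triangles are arrays 1 and 2, red for stem cells and blue for non-stem cell epithelia. For the 7 genes called higher both red points lie right of both blue points, and for the 6 called lower both lie left.

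**Figure D2:**
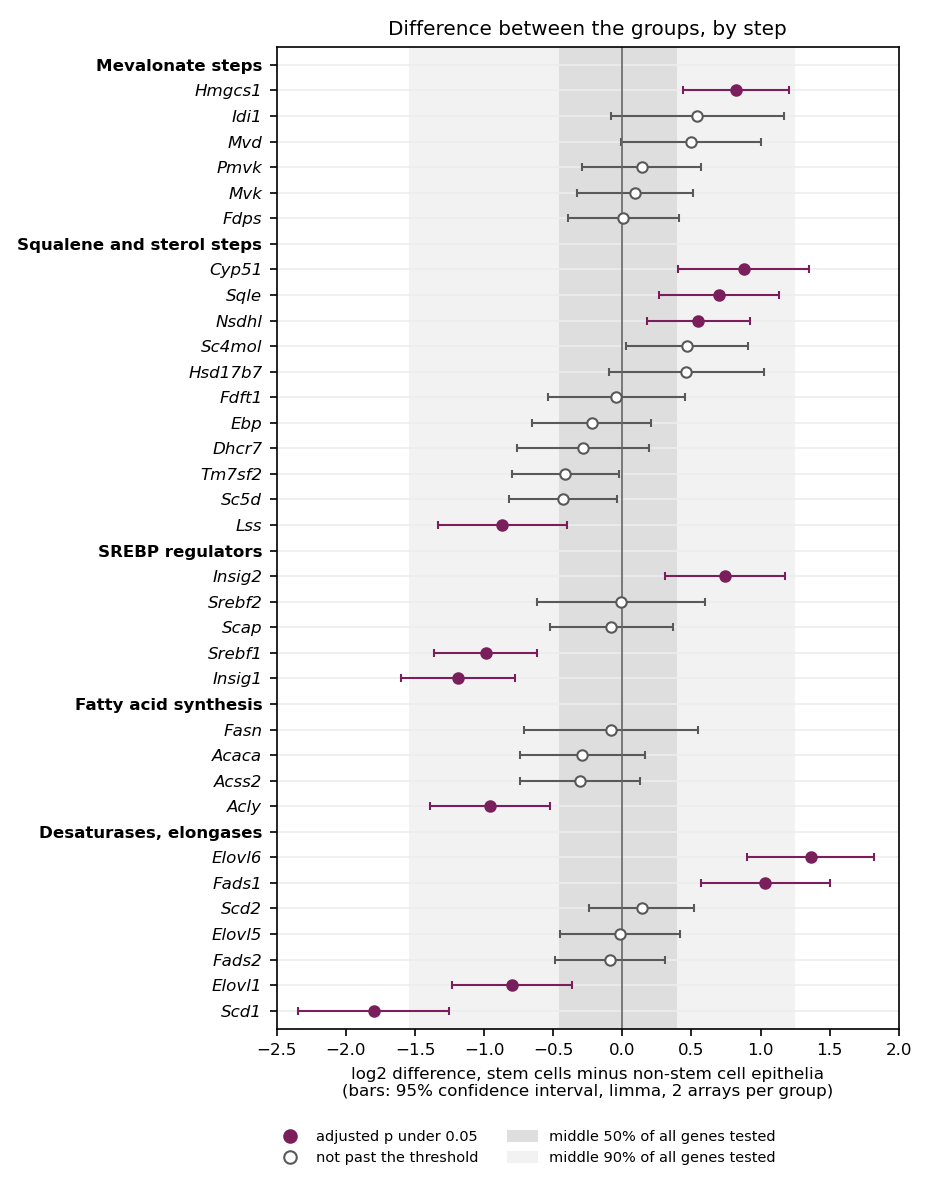
Difference between the groups for each gene (horizontal axis, log2, stem cells minus non-stem cell epithelia), with bars for the 95% confidence interval from limma and 2 arrays per group. Filled points are past the threshold, and the shaded bands hold the middle 50% and 90% of all genes tested. Scd1 at -1.80 and Elovl6 at 1.36 are the most distant points on either side.

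The first steps, from acetyl-CoA to farnesyl pyrophosphate, held 1 called gene of 6. Hmgcs1, the cytosolic synthase that makes HMG-CoA, had levels of 4.60 and 4.72 on the stem cell arrays, against 3.86 and 3.81 on the non-stem arrays. Both stem cell arrays lay above both others, and the difference was 0.82 ± 0.15 (SE, adjusted p = 0.0137), or 1.77-fold. Its probe is placed on chr13_random, a sequence not anchored on chromosome 13 in mm9, at 114793 to 114852. The other 5 genes were not called. Idi1, which isomerises isopentenyl pyrophosphate, had levels of 2.11 and 2.57 on the stem cell arrays, against 2.05 and 1.55 on the non-stem arrays, and the groups did not overlap, although the replicates of each group lay farther apart than the nearest arrays of the groups. Its difference was 0.54 ± 0.25 (SE, adjusted p = 0.157). Mvd, the decarboxylase that makes isopentenyl pyrophosphate, had levels of 0.49 and 0.09 on the stem cell arrays, against -0.33 and -0.09 on the non-stem arrays, also without overlap, and a difference of 0.50 ± 0.20 (SE, adjusted p = 0.118). The 2 kinases in between and the prenyl transferase overlapped between groups. For the mevalonate kinase Mvk the difference was 0.09 ± 0.17 (SE, adjusted p = 0.701), for the phosphomevalonate kinase Pmvk 0.14 ± 0.17 (SE, adjusted p = 0.567), and for Fdps, the farnesyl pyrophosphate synthase, 0.01 ± 0.16 (SE, adjusted p = 0.977). The 95% intervals were -0.33 to 0.51 for Mvk, -0.29 to 0.57 for Pmvk and -0.39 to 0.41 for Fdps. All 6 differences were above 0 with a median of 0.32, but those of Mvk, Pmvk and Fdps turned negative under normexp background correction, and the call of Hmgcs1 was lost there (0.31, adjusted p = 0.149). Without non-stem arrays 1 and 2 in turn, the adjusted p of Hmgcs1 was 0.0761 and 0.0964.

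Among the 11 genes from squalene to cholesterol, 3 were called higher and 1 lower, and successive enzymes, Sqle and Lss, moved in opposite directions. Sqle, the squalene monooxygenase and a rate-limiting step, had levels of 3.71 and 3.98 on the stem cell arrays, against 3.21 and 3.08 on the non-stem arrays. Its difference was 0.70 ± 0.17 (SE, adjusted p = 0.0324), or 1.62-fold higher in stem cells. The next enzyme, Lss, closes squalene epoxide into lanosterol and went the other way. Its levels were -0.78 and -0.57 on the stem cell arrays, against 0.03 and 0.35 on the non-stem arrays, and the difference was -0.87 ± 0.19 (SE, adjusted p = 0.0213), or 1.83-fold lower. Cyp51, the demethylase that acts on lanosterol, had levels of -0.70 and -0.37 on the stem cell arrays, against -1.52 and -1.31 on the non-stem arrays. It was 1.84-fold higher, with a difference of 0.88 ± 0.19 (SE, adjusted p = 0.022). Nsdhl, a dehydrogenase of the C4 demethylation complex, had levels of -0.37 and -0.31 on the stem cell arrays, against -0.90 and -0.87 on the non-stem arrays, and the difference was 0.55 ± 0.15 (SE, adjusted p = 0.0423), or 1.46-fold. For all 4 genes the arrays of the groups did not overlap. The probes lie at chr15:59162688-59162747 for Sqle, chr10:76015992-76016051 for Lss, chr5:4081471-4081530 for Cyp51 and chrX:70202803-70202862 for Nsdhl (mm9).

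The other 7 sterol genes were not called. They include the partners of Nsdhl in removal of the C4 methyl groups. Sc4mol, the C4 methyl oxidase now named Msmo1, had levels of 3.76 and 4.01 on the stem cell arrays, against 3.52 and 3.32 on the non-stem arrays, and a difference of 0.47 ± 0.18 (SE, adjusted p = 0.0993). Hsd17b7, the ketoreductase of that complex, was dim and well above background on only 1 array of each group, with a difference of 0.46 ± 0.22 (SE, adjusted p = 0.172). The direction of both partners depended on the values used, as Sc4mol was at -0.025 under normexp and the second probe of Hsd17b7 was at -0.66. Tm7sf2, one of the sterol C14 reductases, had levels of 2.60 and 2.46 on the stem cell arrays, against 2.98 and 2.90 on the non-stem arrays, without overlap, and a difference of -0.41 ± 0.15 (SE, adjusted p = 0.0978). Sc5d, which introduces the C5 double bond, had levels of 2.30 and 2.43 on the stem cell arrays, against 2.86 and 2.73 on the non-stem arrays, again without overlap, and a difference of -0.43 ± 0.16 (SE, adjusted p = 0.0925). The arrays of the isomerase Ebp and of the reductase Dhcr7, which makes cholesterol from 7-dehydrocholesterol, did not overlap either, though the nearest ones were close. Their differences were -0.22 ± 0.17 (SE, adjusted p = 0.365) and -0.29 ± 0.19 (SE, adjusted p = 0.299). Fdft1, the squalene synthase at the entry of this branch, overlapped, with a difference of -0.04 ± 0.20 (SE, adjusted p = 0.882) and a 95% interval of -0.54 to 0.45.

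Over the 17 enzymes of cholesterol synthesis together, 4 were called higher (23.5%) and 1 lower (5.88%), beside 14.1% and 16.8% of all genes tested. The called share was 29.4%, beside 30.9% of all genes. Differences were above 0 for 11 of the 17, beside 8570 of all 17362 genes, and the medians were 0.14 and -0.01. Without stem cell array 1 the adjusted p of Nsdhl was 0.0646. Without stem cell array 2 it was 0.0996, and that of Sqle 0.0720. Under normexp the differences shrank to 0.21 for Sqle (adjusted p = 0.374), 0.26 for Nsdhl (0.166), 0.45 for Cyp51 (0.0258) and -0.35 for Lss (0.0811), so that the call of Cyp51 alone was kept. Without non-stem arrays 1 and 2 in turn none of the 4 calls was kept, with an adjusted p of 0.111 and 0.172 for Sqle, 0.0603 and 0.131 for Lss, 0.122 and 0.0927 for Cyp51 and 0.16 and 0.167 for Nsdhl.

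Of the 5 regulators, 1 was called higher and 2 lower. Srebf1, the gene of SREBP-1, had levels of 1.67 and 1.71 on the stem cell arrays, against 2.70 and 2.65 on the non-stem arrays. The replicates of each group lay close together and far from the other group, and the gene was 1.98-fold lower in stem cells with a difference of -0.99 ± 0.15 (SE, adjusted p = 0.00739). Srebf2, the gene of SREBP-2, had levels of -0.40 and 0.11 on the stem cell arrays, against -0.33 and 0.06 on the non-stem arrays. The non-stem arrays lay between the stem cell arrays, the difference was -0.01 ± 0.24 (SE, adjusted p = 0.981), and the 95% interval ran from -0.62 to 0.60. The transcript level of an SREBP gene does not measure the cleaved, active protein.

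The Insig pair split. Insig1, itself a target of SREBPs in many tissues, had levels of 1.06 and 1.24 on the stem cell arrays, against 2.26 and 2.43 on the non-stem arrays, and it was 2.28-fold lower in stem cells with a difference of -1.19 ± 0.17 (SE, adjusted p = 0.00577). Insig2, which depends less on sterols, had levels of 2.96 and 3.11 on the stem cell arrays, against 2.42 and 2.15 on the non-stem arrays. It was 1.67-fold higher with a difference of 0.74 ± 0.17 (SE, adjusted p = 0.0278). The second probe of Insig2 gave 0.83, also past the threshold in the separate fit by probe described below. Both genes were without overlap between groups. Scap, the escort protein of SREBPs, had levels of 4.18 and 4.48 on the stem cell arrays, against 4.48 and 4.35 on the non-stem arrays, with overlap, and a difference of -0.08 ± 0.18 (SE, adjusted p = 0.756). The probes lie at chr11:60012664-60012723 for Srebf1, chr5:28404246-28404305 for Insig1 and chr1:123201085-123201144 for Insig2 (mm9). Under normexp Insig2 was no longer called (0.28, adjusted p = 0.205), while Srebf1 and Insig1 kept their calls at -1.05 and -1.12. Without non-stem arrays 1 and 2 in turn, the adjusted p was 0.0582 and 0.062 for Srebf1, 0.041 and 0.059 for Insig1 and 0.0736 and 0.159 for Insig2.

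All 4 genes that lead to palmitate had differences below 0, and 1 of them was called. Acly, the ATP citrate lyase that supplies cytosolic acetyl-CoA to both pathways, had levels of 5.15 and 5.42 on the stem cell arrays, against 6.32 and 6.17 on the non-stem arrays. It was 1.94-fold lower in stem cells with a difference of -0.96 ± 0.17 (SE, adjusted p = 0.013), and its probe lies at chr11:100337674-100337733 (mm9). Acss2, which makes acetyl-CoA from acetate, had levels of 4.15 and 4.19 on the stem cell arrays, against 4.63 and 4.33 on the non-stem arrays, and a difference of -0.31 ± 0.17 (SE, adjusted p = 0.226). Acaca, the carboxylase that makes malonyl-CoA, had levels of 3.11 and 3.45 on the stem cell arrays, against 3.60 and 3.53 on the non-stem arrays, and a difference of -0.29 ± 0.18 (SE, adjusted p = 0.272). The arrays of both genes were close but without overlap. Fasn, the fatty acid synthase, was near the background and well above it on neither stem cell array, with levels of -1.46 and -2.14 on the stem cell arrays, against -1.76 and -1.68 on the non-stem arrays. The brighter stem cell array lay above both non-stem cell arrays and the dimmer one below them, and the difference was -0.08 ± 0.25 (SE, adjusted p = 0.824), with a 95% interval of -0.71 to 0.55. The median of these 4 genes was -0.30. Fasn turned to 0.06 with the percentile over detected probes and to 0.22 under normexp, while the other 3 stayed below 0 under the 4 other scalings. Without non-stem arrays 1 and 2 in turn, the adjusted p of Acly was 0.0853 and 0.0762.

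The 7 desaturases and elongases held the widest spread, with 2 genes called higher and 2 lower. Scd1, the stearoyl-CoA desaturase that makes oleate and palmitoleate, had levels of -0.12 and 0.32 on the stem cell arrays, against 1.74 and 2.05 on the non-stem arrays. It was 3.48-fold lower in stem cells, with a difference of -1.80 ± 0.22 (SE, adjusted p = 0.00389), the largest among the 33 genes. Its paralog Scd2 had levels of 6.15 and 6.25 on the stem cell arrays, against 6.06 and 6.06 on the non-stem arrays, and a difference of 0.14 ± 0.15 (SE, adjusted p = 0.513), with a 95% interval of -0.24 to 0.52. Another paralog outside the 33, Scd3, was higher (1.06 ± 0.16, adjusted p = 0.00777). Probes of near-identical paralogs can share signal, which the files do not resolve.

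Elovl6 extends palmitate to stearate, the substrate of the Scd enzymes. Its levels were 1.89 and 2.18 on the stem cell arrays, against 0.78 and 0.57 on the non-stem arrays, and it was 2.57-fold higher in stem cells with a difference of 1.36 ± 0.18 (SE, adjusted p = 0.00529). Elovl1, which extends saturated very long chains, had levels of 5.37 and 5.56 on the stem cell arrays, against 6.38 and 6.15 on the non-stem arrays. It was 1.74-fold lower, with a difference of -0.80 ± 0.17 (SE, adjusted p = 0.022), and its second probe was lower too (-1.16). Elovl5, which extends polyunsaturated chains, overlapped between groups with a difference of -0.02 ± 0.17 (SE, adjusted p = 0.953) and a 95% interval of -0.45 to 0.42.

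Fads1, the delta-5 desaturase of polyunsaturated fatty acids, had levels of -0.56 and -0.83 on the stem cell arrays, against -1.86 and -1.60 on the non-stem arrays. It was 2.05-fold higher in stem cells with a difference of 1.03 ± 0.19 (SE, adjusted p = 0.0127). Fads2, the delta-6 desaturase encoded beside it, had levels of 0.57 and 0.75 on the stem cell arrays, against 0.73 and 0.77 on the non-stem arrays, with overlap, and a difference of -0.09 ± 0.16 (SE, adjusted p = 0.691). The probes of Fads1 and Fads2 lie at chr19:10270530-10270589 and chr19:10137760-10137819, those of Scd1 and Scd2 at chr19:44469387-44469446 and chr19:44381024-44381083, and those of Elovl6 and Elovl1 at chr3:129341248-129341307 and chr4:118105163-118105222 (mm9). All 4 calls of these enzymes were kept under normexp, with smaller differences for Elovl6 (0.73), Fads1 (0.47) and Scd1 (-1.29) and a larger one for Elovl1 (-1.24). Without non-stem arrays 1 and 2 in turn, the adjusted p was 0.0309 and 0.0474 for Scd1, 0.0384 and 0.0571 for Elovl6, 0.0831 and 0.0628 for Fads1 and 0.119 and 0.0838 for Elovl1.

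Several related genes moved apart, and the difference of their log2 levels on the same array does not depend on the constant by which an array is shifted. These pairs were chosen after their values were seen and carry no test. Insig2 minus Insig1 was 1.89 and 1.87 on the stem cell arrays against 0.17 and -0.27 on the non-stem arrays, a shift of 1.93. Scd2 minus Scd1 was 6.27 and 5.93 against 4.32 and 4.0, a shift of 1.94. Elovl6 minus Elovl1 was -3.48 and -3.38 against -5.60 and -5.58, a shift of 2.16. Fads1 minus Fads2 shifted by 1.12, Srebf2 minus Srebf1 by 0.98, Sqle minus Lss by 1.57 and Hmgcs1 minus Acly by 1.78. Only the shift between groups carries meaning here, since the levels of different probes are not comparable, and each pair shows unequal change without showing which gene moved.

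Probes that read the same gene can be compared in direction. Calls of second probes come from a separate limma fit over all tested probes, adjusted by Benjamini-Hochberg over those probes and not over the 17362 genes. Of the 33 genes, 13 had several probes and 11 had several that passed the filter. For 8 of those 11 the probes agreed in sign. Insig2 (0.74 and 0.83) and Elovl1 (-0.80 and -1.16) had 2 called probes each. Acly had a second probe at -0.53 and Nsdhl one at 0.10, neither called. Tm7sf2, not called on its brighter probe, had a called second probe at -0.73. Acss2 had a second probe at -2.33 that was called, far from the -0.31 of the brighter one. Hsd17b7 (0.46 and -0.66), Mvk (0.09 and -0.23) and Fads2 (-0.09 and 0.35) had probes of opposite sign, none of them called.

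The calls depended on the group from which an array was left out. Leaving out stem cell array 1 gave 7 higher and 6 lower members, and leaving out stem cell array 2 gave 6 and 6. Without non-stem array 1 the calls were Elovl6 higher and Insig1 and Scd1 lower. Without non-stem array 2 Scd1 was the only call. The adjusted p of the called genes that were lost ran from 0.0571 to 0.172 in those fits, where the spread came from the stem cell arrays alone. The differences of the 13 genes kept their direction in all 15 alternatives, and Scd1 kept its call in all 15. Nsdhl lost its call under 11 of them, the most of the 13 genes. These included the mean of a gene's probes and the intensity trend with robust variances. The 2 filters, that trend, the 2 replicate blocks and the 2-fold minimum left the differences of the 13 genes unchanged. Those alternatives could not turn a sign, and the deposited values moved no member by more than 0.0011. Under the 4 other scalings 8 of the 13 calls were kept, and the 5 lost were Hmgcs1, Sqle, Lss, Nsdhl and Insig2, all under normexp. The median of all genes was -0.01 as reported, -0.10 with normexp and 0.13 with the percentile over detected probes. The median move of a single gene was -0.28 with normexp and 0.14 with that percentile, so a difference of that size is relative to the scaling chosen. The share of calls that were higher was 45.7% over all genes, 25.3% with normexp and 59.3% with the percentile over detected probes.

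**Figure D3:**
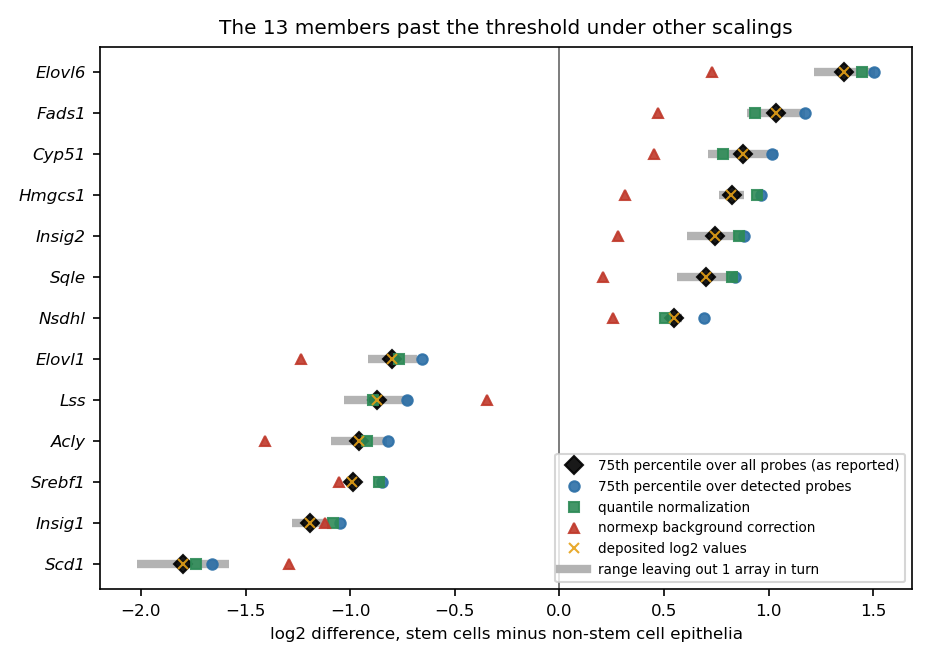
Difference of the 13 called genes (horizontal axis, log2, stem cells minus non-stem cell epithelia) under 5 scalings or starting values, with a gray bar for the range when 1 array was left out in turn. All marks of a gene lie on the same side of 0, and the red triangles of normexp correction lie left of the other marks for the 7 higher genes and are smallest for Sqle (0.21).

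The genes were read beside markers of the cells in the sort. Basal keratins were higher in stem cells (Krt14 by 3.16 ± 0.16, adjusted p = 0.000321, and Krt5 by 3.15 ± 0.20, adjusted p = 0.000535), with 4 of 5 basal markers called higher and summed signals (log2 of the sum over the list) of 7.41 and 7.41 against 5.33 and 5.41. Luminal duct markers were called higher in 6 of 6 (summed signals 10.5 and 10.6 against 9.75 and 9.72). Acinar markers, of the cells that secrete saliva, were called lower in 7 of 8 (8.49 and 8.53 against 12.0 and 12.1), among them Aqp5 (-3.19 ± 0.16, adjusted p = 0.0003) and Bpifa2 (-4.55 ± 0.19, adjusted p = 0.000232). All 4 tested cycling markers were called higher, Mki67 by 2.45 ± 0.16 (adjusted p = 0.000557), with sums of 3.68 and 3.68 against 1.46 and 1.43. Of these, Ccnb1 passed the filter only through the stem cell arrays, so the filter favoured its direction. Top2a and Cdk1 did not pass the filter. Of the 2 general epithelial markers, both well above background on all 4 arrays, Epcam was lower in stem cells (-1.23 ± 0.19, adjusted p = 0.00834) and Cdh1 was not called (0.28 ± 0.15, adjusted p = 0.213). Granular tubule markers were called higher in 4 of 7 and lower in 1 (summed signals 10.8 and 10.8 against 8.35 and 8.33), with Klk1 at 3.25 ± 0.16 (adjusted p = 0.0003) and Egf at -1.26 ± 0.16 (adjusted p = 0.00398). All 4 tested erythroid markers were called lower (5.45 and 5.48 against 7.50 and 7.82), with Hba-a1 at -2.19 ± 0.18 (adjusted p = 0.00111). Among them Slc4a1 passed the filter only through the non-stem arrays, which again favoured its direction. Of the 2 tested fibroblast markers Dcn was higher (2.14 ± 0.16, adjusted p = 0.000822) and Col1a2 was not called (-0.49 ± 0.17, adjusted p = 0.0765). Myoepithelial markers were called higher in 1 of 4 tested, macrophage markers in 1 of 2, and nerve and Schwann cell markers higher in 1 and lower in 1 of 2. No endothelial or lymphocyte marker was called of 2 tested each, and no mast cell marker was well above background on any array. These markers differed between the same groups as the lipid genes, and their part in the differences of the lipid genes was not tested. In sorted bulk RNA, a smaller share of one cell type and less RNA per cell cannot be told apart.

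Fat cells adjoin the gland and hold much lipid synthesis RNA. Of 10 adipocyte markers, Adipoq, Plin1, Cidec, Lep, Retn and Cfd were well above background on no array. Of the 4 that were tested, Fabp4 (2.72 ± 0.25, adjusted p = 0.00165) and Slc2a4 (2.01 ± 0.17, adjusted p = 0.00117) were higher in stem cells, Plin4 was lower (adjusted p = 0.0224, at least 1.40-fold, as it was well above background on neither stem cell array), and Adrb3 was not called (1.10 ± 1.83, adjusted p = 0.675). Plin4 passed the filter only through the non-stem arrays, so the filter favoured its direction. The summed signals of the list (log2) were 2.91 and 3.86, against 1.36 and 1.41 on the non-stem arrays. Adrb3 enters these sums with levels of -3.47 and 2.56 on the stem cell arrays, against -1.95 and -1.16 on the non-stem arrays. Fabp4 and Slc2a4 are also expressed by other cell types.

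Other genes of lipid metabolism were read from 5 lists of 105 genes, of which 86 were tested. In these lists 10 genes were called higher and 14 lower, with a median difference of -0.08. The called share was 27.9%, beside 30.9% of all genes tested, with 11.6% higher and 16.3% lower beside 14.1% and 16.8%. Among 21 tested enzymes and carriers of the same pathways outside the 33, 5 were called higher (23.8%) and 2 lower (9.52%). Elovl7, another elongase, was higher (1.25 ± 0.17, adjusted p = 0.00554), with levels of 3.56 and 3.73 against 2.51 and 2.28 on the non-stem arrays. Hacd1, a dehydratase of the elongation cycle, was higher by 1.06 ± 0.19 (adjusted p = 0.0133), and Fads6, a desaturase family member that was well above background on 1 non-stem cell array, by 1.29 ± 0.36 (adjusted p = 0.0443). Acacb, the mitochondrial acetyl-CoA carboxylase, was lower (-1.13 ± 0.19, adjusted p = 0.0104), as was Slc25a1 (-0.82 ± 0.17, adjusted p = 0.02), the carrier that exports the citrate on which Acly acts. Among the 33 genes the carboxylase Acaca and the lyase Acly are the enzymes nearest to Acacb and Slc25a1. Fads6 was not called without non-stem array 2 (adjusted p = 0.165).

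Among 16 tested regulators outside the 33, none was called higher and 4 were called lower. These counts are to be read beside 14.1% higher and 16.8% lower of all genes tested. Lpin1, a phosphatidate phosphatase and coregulator, was lower by 5.07-fold (-2.34 ± 0.27, adjusted p = 0.00334). Mlx, the partner of the carbohydrate response factors that act on lipogenic genes, was lower by 3.32-fold (-1.73 ± 0.19, adjusted p = 0.00265). Aup1, a lipid droplet and endoplasmic reticulum protein, was at -1.04 ± 0.19 (adjusted p = 0.0126), and Prkaa2, a catalytic subunit of the AMP-activated kinase, at -0.77 ± 0.19 (adjusted p = 0.0329). The median of this list was -0.26. The call of Prkaa2 was lost under 7 of the 15 alternatives, quantile normalization and the crossed replicate block among them. Without stem cell array 1 its adjusted p was 0.0727.

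Sterol uptake and transport genes were called 3 higher (20.0%) and 3 lower (20.0%) of 15 tested, beside 14.1% and 16.8% of all genes tested. Apoe, the lipid carrier, was higher by 1.34 ± 0.16 (adjusted p = 0.00332), Stard4, a cytosolic sterol carrier, by 1.18 ± 0.21 (adjusted p = 0.0123), and the endocytic receptor Lrp1 by 0.89 ± 0.17 (adjusted p = 0.014). Osbp, an oxysterol binding protein that moves cholesterol at membrane contacts, was lower (-1.52 ± 0.18, adjusted p = 0.00352), as were Npc2, which carries cholesterol out of lysosomes (-1.06 ± 0.17, adjusted p = 0.00934), and the ester hydrolase Nceh1 (-0.84 ± 0.17, adjusted p = 0.0192).

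Of the glycerolipid and lipid droplet genes, none of 15 tested was called higher and 4 were called lower (26.7%). Over all genes tested, 14.1% were called higher and 16.8% lower. Plin2, the coat protein of lipid droplets, had levels of 2.54 and 2.64 against 5.12 and 5.33 on the non-stem arrays. It was 6.22-fold lower (-2.64 ± 0.16, adjusted p = 0.000535) and kept its call under all 15 alternatives. Gpam, the mitochondrial glycerol phosphate acyltransferase, was lower (-1.17 ± 0.17, adjusted p = 0.00637) and was well above background on 1 stem cell array. Lpin3, a relative of Lpin1, was at -0.93 ± 0.15 (adjusted p = 0.0087), and Mgll, the monoglyceride lipase, at -0.61 ± 0.17 (adjusted p = 0.0464). In fatty acid activation and oxidation 2 of 19 tested genes were called higher (10.5%) and 1 lower (5.26%). They were Slc27a3, a fatty acid transport protein (1.64 ± 0.15, adjusted p = 0.00154), Hadh, a beta-oxidation dehydrogenase (0.66 ± 0.15, adjusted p = 0.0251), and the acyl-CoA synthetase Acsl4 (-1.19 ± 0.19, adjusted p = 0.00837). The call of Mgll was lost under 9 of the 15 alternatives, among them quantile normalization, the percentile over detected probes and both replicate blocks. Without stem cell array 1 its adjusted p was 0.146, and under normexp Gpam (-0.18, adjusted p = 0.334) and Hadh (0.17, adjusted p = 0.413) were not called. Without non-stem array 2 the calls in the 5 lists fell to 3 higher and 6 lower, and without non-stem array 1 to 6 and 6. Of the genes named from these lists, Lpin1, Mlx, Apoe, Osbp, Slc27a3 and Plin2 kept their calls under all 15 alternatives.

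**Figure D4:**
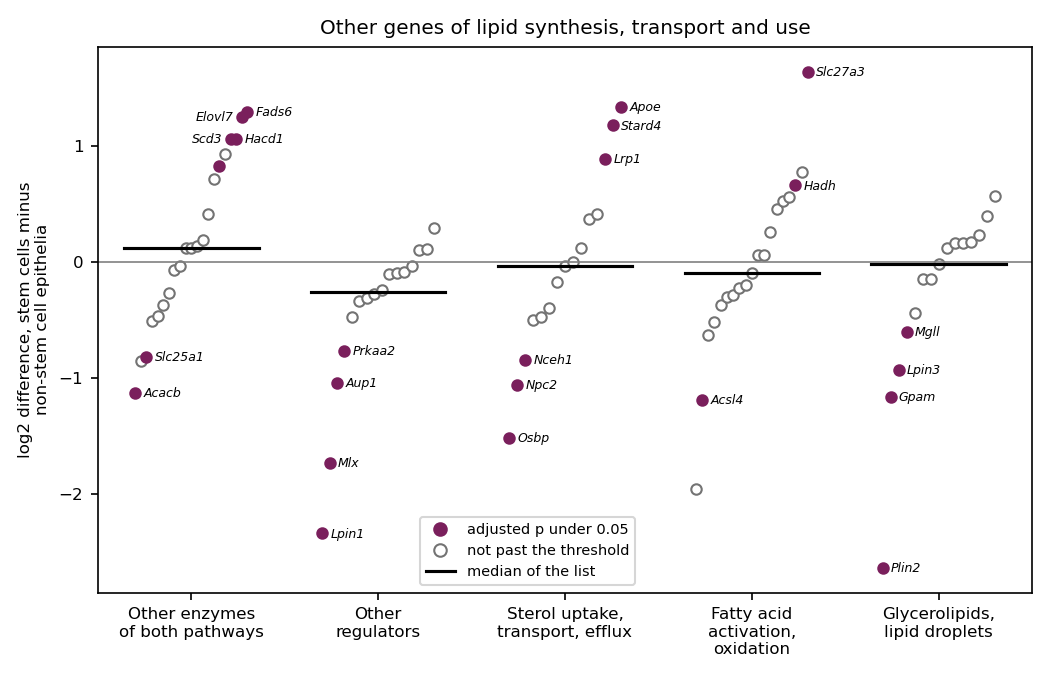
Difference of 86 tested genes in 5 lists of lipid metabolism outside the 33 (vertical axis, log2, stem cells minus non-stem cell epithelia), with a bar at each list's median. Filled points are past the threshold, the names are those of the up to 4 largest each way per list, and Plin2 at -2.64 is the lowest point.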

How the data were processed

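RNA of 4 samples was measured on Agilent one-colour arrays. The values deposited per spot are linear intensity, made with Feature Extraction 10.7.3.1 on an mm9 (NCBI37) design per the file headers. The submitters' processing notes name version 9.1, and this was not resolved. Whether the arrays shared a slide was not tested. Each held 59305 non-control spots of 55681 probes, with 35.7% and 39.0% of spots well above background for stem cells, 42.3% and 41.9% for non-stem cell epithelia, and 0 saturated. Arrays correlated at 0.986 and 0.992 within groups and at 0.923 to 0.935 between them. The number of arrays limits the precision.

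Control and outlier-flagged spots were left out, and the log2 of each processed signal was taken relative to the 75th percentile of its array and averaged per probe. Probes that 2 or more arrays showed well above background were tested with limma 3.58.1 (R 4.3.3, lmFit and eBayes, two-sided, 5.53 degrees of freedom), taking the brightest tested probe per gene. The authors' deposited table holds log2 values whose differences between arrays correlated at 1 with these. Its column medians were -0.27, -0.55, -0.83 and -0.75, and the baseline of its centring stays unknown. Members were matched by the array's gene name, and other genes by RefSeq symbol (GRCm38.p6) through accession for 26582 probes, and otherwise by the array's name.

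The members and lists were chosen with earlier results of these data known. All 33 members are named, with up to 4 called genes each way per other list, by size, and 6 marker genes; other marker genes and Scd3's place beside its paralogs were named after their values were seen. Same-numbered arrays deviated from their group means with a correlation of -0.103. This value cannot show whether same-numbered samples came from the same mice or sort, so pairing stays unknown. The alternatives were 4 other scalings or starting values, 2 filters, an intensity trend with robust variances, 2 replicate blocks, the mean of a gene's probes, leaving out each array, and a 2-fold minimum.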

Additional observations from a re-analysis of the deposited data

How the results depend on the processing

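Of 493 member values under alternatives, 390 kept their direction and side of the threshold, 57 lost a call, 15 gained one and 31 turned sign, none of a called member. Several of these alternatives could not turn the sign of a called member, as given above. The 7 higher and 6 lower members became 3 and 10 with normexp, 0 and 1 with no filter (which tests many dim probes), and 2 and 2 with a 2-fold minimum. Leaving out 1 array in turn gave 0 to 7 higher and 1 to 6 lower members, the fewest without a non-stem cell array, when the spread came from the stem cell arrays. Over all genes, 2454 higher and 2919 lower became 1602 and 4735 with normexp, 841 and 765 with no filter, 1226 and 1667 with a 2-fold minimum, and 688 to 2875 and 903 to 3564 leaving out 1 array. In the other lipid lists, 10 higher became 3 with no filter and 3 to 14 leaving out 1 array, and 14 lower became 36 with normexp, 4 with no filter, 24 with the trend and robust variances, 9 with a 2-fold minimum and 6 to 17 leaving out 1 array. The member median of -0.02 became -0.29 with normexp, where the median of all genes went from -0.01 to -0.10 and the median move of a single gene was -0.28, and ran from -0.13 to 0.10 leaving out 1 array. Normexp was built on other signal columns and used an offset of 50. For comparison, the 75th percentile used for scaling came to 30.4 for stem cell array 1 and 43.3 for stem cell array 2. It came to 74.8 for non-stem array 1 and 63.0 for non-stem array 2. The part of the offset in the normexp values was not tested, nor was the cause of the other moves.

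With the replicate number as a replicate block, 6 members were called higher and 6 lower of 5332 calls, Nsdhl being lost, and with the crossed pairing 5 and 5 of 4540. In this balanced design a replicate block changes the error of a difference and not the difference itself. It therefore cannot test direction. With deposited values no member moved by more than 0.0011.

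Uncalled members that turned sign with normexp were Mvk (-0.40), Pmvk (-0.33), Fdps (-0.41), Sc4mol (-0.025), Srebf2 (0.052), Fasn (0.22) and Scd2 (-0.35). With the percentile over detected probes they were Fdft1 (0.095), Srebf2 (0.13), Scap (0.060), Fasn (0.057), Elovl5 (0.12) and Fads2 (0.049). With quantile normalization they were Fdft1 (0.060), Scap (0.0057) and Elovl5 (0.097), and with the mean of a gene's probes Mvk (-0.071), Hsd17b7 (-0.099) and Fads2 (0.13). Leaving out 1 array in turn, the differences that changed sign ranged as follows: Elovl5 (-0.16 to 0.12), Fads2 (-0.18 to 0.0021), Fasn (-0.42 to 0.26), Fdft1 (-0.25 to 0.16), Fdps (-0.088 to 0.10), Mvk (-0.031 to 0.21), Scap (-0.23 to 0.070) and Srebf2 (-0.26 to 0.25).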
